A study of Mus musculus with 4 samples.

Results

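Krt6a, Krt6b, Krt16 and Krt17 encode the wound and stress keratins of the epidermis. They are 4 of the 24346 genes listed for each library, and were selected by gene symbol from earlier results of the same comparison, in which their levels differed between short- and long-term cultures. Their differences between the groups are therefore given as a description, with no test. Keratins form filaments from pairs of a type I and a type II protein. Krt6a and Krt6b encode type II keratins, and Krt16 and Krt17 encode type I keratins. In healthy skin these genes are used mainly in follicle layers such as the outer root sheath and in nail and oral epithelium, whereas wounding or inflammation turns them on within the epidermis, where they accompany changes in migration, growth and immune signaling of keratinocytes.

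The study asked how hair follicle stem cells (HFSCs) change during long-term culture. HFSCs were sorted as CD34- and CD49f-positive cells from the dorsal skin of adult, 4-week-old C3H/HeN mice and grown in the serum-free medium M-CnT. RNA of HFSCs after 10 passages (10p-HFSCs, n = 2 libraries) was compared with RNA after 48 passages (48p-HFSCs, n = 2 libraries). Both groups had the same strain, sort and medium and carried no engineered allele, and differed in passage number and therefore in time in culture. Whether the libraries of a group came from separate cultures or mice was not stated. The p-values given below for other genes thus rest only on spread between these libraries, which may be technical. The fit behind them combined the spread of each gene with a trend over all tested genes of similar level. Values are FPKM, fragment numbers scaled by exon length and by the mapped fragments of the library, so that levels of different genes can be set side by side within a library. In RNA from whole cultures, more cells that use a gene and more RNA per cell cannot be told apart.

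The FPKM of all genes summed to 581516 and 719012 in 10p-HFSCs, and to 666018 and 1414950 in 48p-HFSCs. The spacing of low FPKM values gave approximate depths, which were lowest in replicate 2 of 48p-HFSCs (about 8760000 reads) and highest in replicate 1 of 10p-HFSCs (about 18600000 reads). All 6 basal keratinocyte markers reached 1 FPKM in every library. Of 6 hair follicle stem cell markers, Krt15 and Sox9 were expressed, whereas Cd34, Lhx2, Lgr5 and Nfatc1 did not exceed 0.234 FPKM in any library. Krt15 had 136 and 82.6 FPKM in 10p-HFSCs, against 425 and 18.8 FPKM in 48p-HFSCs. Its 48p-HFSC values thus lay above and below both 10p-HFSC values. Of the suprabasal markers, Krt1, Krt10 and Lor were listed at 0 in all libraries, whereas Ivl had 8.12 and 8.49 FPKM in 10p-HFSCs, against 84.1 and 13.1 FPKM in 48p-HFSCs. The summed level of 5 leukocyte markers was 0.641 and 0.694 FPKM in 10p-HFSCs, against 64.3 and 104 FPKM in 48p-HFSCs, that of 5 fibroblast markers 68.8 and 60.1 against 0.0525 and 0.0466 FPKM, and that of 4 melanocyte markers 0.486 and 0.640 against 2.15 and 10.8 FPKM. In each of these 3 lists 1 gene held most of the higher sum. Cd74 had 61.2 and 102 FPKM in 48p-HFSCs, whereas Ptprc did not exceed 0.0711 FPKM in any library and Cd3e and Tyrobp were listed at 0. Col1a2 had 67.6 and 59.3 FPKM in 10p-HFSCs, whereas Col1a1 did not exceed 0.903 FPKM and Dcn and Lum were listed at 0. Tyr had 1.33 and 9.48 FPKM in 48p-HFSCs, whereas Dct was listed at 0. The part of these differences in the keratin values was not tested.

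The 4 genes lie in the keratin gene clusters, on the minus strand of mm10 (GENCODE M21 annotation). Krt16 (ENSMUSG00000053797.10, chr11:100246091-100248902, 8 exons) and Krt17 (ENSMUSG00000035557.9, chr11:100256217-100261029, 8 exons) are neighbours in the type I cluster, with 7.314 kb and no other annotated gene between them. Krt6b (ENSMUSG00000023041.7, chr15:101676023-101680287, 9 exons) and Krt6a (ENSMUSG00000058354.7, chr15:101689910-101694307, 9 exons) are neighbours in the type II cluster, 9.622 kb apart, and Krt5 follows Krt6a after 12.762 kb. The coding sequences of Krt6a and Krt6b were identical at 97.8% of aligned bases, with 37 differences in 1659 bases and an identical run of 280 bases. Krt16 and Krt17 were identical at only 78.2%, less than each was with Krt14 (86.5% and 84.1%).

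The following coding stretches show how far reads could separate these genes. They are the 60-base windows in which each neighbouring pair differed most, among windows within a single exon and without alignment gaps. They were read from the GENCODE M21 transcripts in the direction of the coding strand, with differing bases in capitals. The Krt6a and Krt6b windows (exon 4, chr15:101692484-101692543 and chr15:101678303-101678362, minus strand) differed at 10 bases. The Krt16 and Krt17 windows (exon 5, chr11:100247141-100247200 and chr11:100257782-100257841, minus strand) differed at 25 bases.
Krt6a: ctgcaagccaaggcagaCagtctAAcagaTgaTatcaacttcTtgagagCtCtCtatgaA
Krt6b: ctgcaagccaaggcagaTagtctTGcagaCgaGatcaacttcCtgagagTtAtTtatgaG
Krt16: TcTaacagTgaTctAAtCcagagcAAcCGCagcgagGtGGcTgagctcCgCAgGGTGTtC
Krt17: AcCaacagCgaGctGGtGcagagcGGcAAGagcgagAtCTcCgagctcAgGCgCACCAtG

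Other stretches could not separate the type II pair. The next stretch, which lies in exon 1 of both Krt6a (chr15:101694156-101694215) and Krt6b (chr15:101680131-101680190), had 0 differences.
Krt6a and Krt6b: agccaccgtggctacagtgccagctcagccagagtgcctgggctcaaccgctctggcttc
Of all transcript windows as long as 1 read of this study, 33.7% of those in Krt6a and 30.4% of those in Krt6b occurred in a transcript of another gene, and 638 of them were shared by Krt6a and Krt6b. In Krt16, 24.1% of windows were shared, mostly with the predicted gene Gm11597 (309 of 1465), and in Krt17 0 of 1451 were shared. How reads with several matches were assigned is not given in the sources used here, so the split between Krt6a and Krt6b is uncertain, and the Krt16 level less so. The Krt17 level is free of this limit for reads that match exactly.

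Krt17 showed the greatest contrast of the 4 genes. It encodes a type I keratin that is induced early after wounding and takes part in growth and immune gene control in keratinocytes. Krt17 had an FPKM of 0.299 (replicate 1) and 0.313 (replicate 2) in 10p-HFSCs, and 6815 (replicate 1) and 4536 (replicate 2) in 48p-HFSCs. Both 48p-HFSC libraries were far above both 10p-HFSC libraries. The mean was 0.306 ± 0.00997 (SD, n = 2) in 10p-HFSCs, against 5675 ± 1612 (SD, n = 2) in 48p-HFSCs, a difference of 12.06 in log2(FPKM + 1). By FPKM rank among all listed genes, Krt17 was at 11438 and 11520 in 10p-HFSCs, against 6 and 78 in 48p-HFSCs. From the approximate depths, the 10p-HFSC values stood for about 8.63 and 6.48 reads, and the 48p-HFSC values for about 164179 and 61609 reads. The low level in 10p-HFSCs was thus measured with few reads, but lay above the FPKM that 3 reads would give in those libraries (0.104 and 0.145).

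Krt16 was the next in size of contrast. It encodes the type I keratin that pairs with keratin 6 in wounded and thickened epidermis. Krt16 had an FPKM of 8.97 and 9.12 in 10p-HFSCs, against 272 and 87.6 in 48p-HFSCs. The groups did not overlap, and the 48p-HFSC libraries differed from each other 3.10-fold. The mean was 9.04 ± 0.104 (SD, n = 2) in 10p-HFSCs, against 180 ± 130 (SD, n = 2) in 48p-HFSCs, a 19.9-fold higher mean and a difference of 3.95 in log2(FPKM + 1). This log2 difference was 3.14 without replicate 1 of 48p-HFSCs and 4.76 without replicate 2 of 48p-HFSCs.

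Krt6a was the only one of the 4 genes with a high level in both groups. It encodes the main type II wound keratin of the mouse, and was at ranks 391 and 404 in 10p-HFSCs. Krt6a had an FPKM of 193 and 202 in 10p-HFSCs, against 643 and 217 in 48p-HFSCs. Replicate 2 of 48p-HFSCs was 1.10-fold the 10p-HFSC mean, whereas replicate 1 was 3.25-fold that mean. The mean was 198 ± 5.77 (SD, n = 2) in 10p-HFSCs, against 430 ± 301 (SD, n = 2) in 48p-HFSCs, and the difference of 0.92 in log2(FPKM + 1) was smaller than the SD of 1.10 on that scale between the 48p-HFSC libraries. Without replicate 1 of 48p-HFSCs the log2 difference was 0.14, and without replicate 2 of 48p-HFSCs it was 1.70. After rescaling to TPM, in which the values of each library sum to the same total, Krt6a was at 333 and 280 TPM in 10p-HFSCs, against 965 and 153 TPM in 48p-HFSCs, so that replicate 2 of 48p-HFSCs fell below both 10p-HFSC libraries.

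Krt6b, the close copy of Krt6a, was near the limit of detection in 3 of the 4 libraries. Its FPKM was 0.0240 and 0.101 in 10p-HFSCs, against 7.30 and 0 in 48p-HFSCs. Only replicate 1 of 48p-HFSCs was raised, and the groups overlapped. These values stood for about 1 and 3 reads in 10p-HFSCs, against 254 and 0 reads in 48p-HFSCs, where a count of 0 allows an FPKM of up to 0.153 (3 reads, counting error only). Krt6b failed the filter on low values, which asks for 2 or more libraries with an FPKM of 1 or higher, and which the other 3 genes passed. The difference of 1.44 in log2(FPKM + 1) became -0.086 without replicate 1 of 48p-HFSCs.

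**Figure D1:**
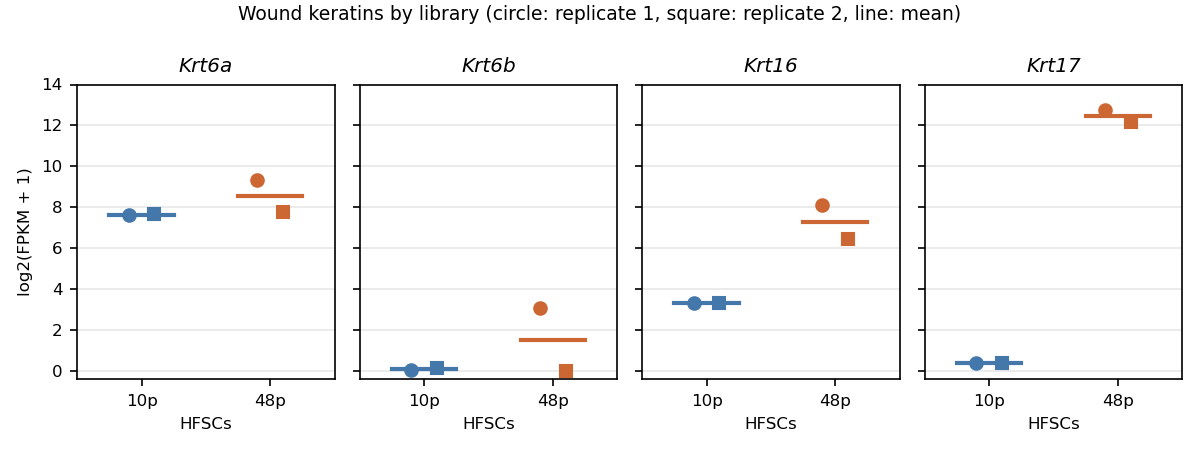
Levels of Krt6a, Krt6b, Krt16 and Krt17 as log2(FPKM + 1) in the libraries of 10p-HFSCs (blue) and 48p-HFSCs (orange); circles are replicate 1, squares replicate 2, and lines the mean of the 2 libraries. The 10p-HFSC points of each gene lie close together, and replicate 2 of 48p-HFSCs lies below replicate 1 for all 4 genes, at the 10p-HFSC level for Krt6a and Krt6b.

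For 3 of the 4 genes, Krt6a, Krt16 and Krt17, both 48p-HFSC libraries were above both 10p-HFSC libraries. The same held for 31.7% of the 11018 genes that passed the filter (3488 genes). Since the 4 genes were chosen from this comparison, nothing is read from their count. After rescaling to TPM, Krt16 had 15.4 and 12.7 TPM in 10p-HFSCs, against 408 and 61.9 TPM in 48p-HFSCs. Krt17 had 0.514 and 0.435 TPM in 10p-HFSCs, against 10233 and 3205 TPM in 48p-HFSCs. These 2 genes therefore kept their non-overlapping groups on both scales, and Krt6a did not. TPM moved the median log2 difference of all tested genes from -0.03 to -0.55.

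The replicates of 48p-HFSCs differed in the same direction for all 4 genes. On the log2(FPKM + 1) scale, replicate 2 minus replicate 1 of 48p-HFSCs was -1.56 for Krt6a, -3.05 for Krt6b, -1.62 for Krt16 and -0.59 for Krt17. The median over all tested genes was 0.01, and that over the 2080 tested genes with transcripts of 1500 to 2500 bases, the length range of these keratins, was 0.23. In 10p-HFSCs the same differences were 0.06, 0.10, 0.02 and 0.02. The lower values in replicate 2 of 48p-HFSCs were not particular to the wound keratins. All other keratins that passed the filter were also lower there than in replicate 1, except Krt7, Krt8 and Krt18. For example, Krt5 had 8156 and 5120 FPKM in 48p-HFSCs, and Krt14 had 3896 and 2439 FPKM. Replicate 2 of 48p-HFSCs had the highest summed FPKM and the lowest approximate depth, and its median difference from replicate 1 was 0.86 for the 594 tested genes with transcripts under 1000 bases. The part of these properties in the lower keratin values was not tested.

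The make-up of the whole keratin family differed between the groups. The summed FPKM of the 52 keratin genes was 4004 and 3367 in 10p-HFSCs, against 21701 and 15120 in 48p-HFSCs. It made up 0.689% and 0.468% of all FPKM in 10p-HFSCs, against 3.26% and 1.07% in 48p-HFSCs. The 4 wound keratins together held 5.06% and 6.27% of the keratin FPKM in 10p-HFSCs, against 35.7% and 32.0% in 48p-HFSCs. Nearly all of their share in 10p-HFSCs was Krt6a, and nearly all of it in 48p-HFSCs was Krt17.

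Within the family, the shares of the wound keratins went in different directions. The share of Krt17 was 0.00747% and 0.00930% in 10p-HFSCs, against 31.4% and 30.0% in 48p-HFSCs. This share was alike in both 48p-HFSC libraries, although the FPKM of Krt17 differed 1.50-fold between them. The share of Krt16 was 0.224% and 0.271% in 10p-HFSCs, against 1.25% and 0.579% in 48p-HFSCs. The share of Krt6a was 4.83% and 5.99% in 10p-HFSCs, against 2.96% and 1.43% in 48p-HFSCs. Krt6a thus made up less of the keratin FPKM in both 48p-HFSC libraries, although its FPKM was not lower. Shares within a library have a fixed total, so the high share of Krt17 lowers those of other keratins by construction. Shares without Krt17 were not computed. Krt6b held at most 0.0337% in any library.

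**Figure D2:**
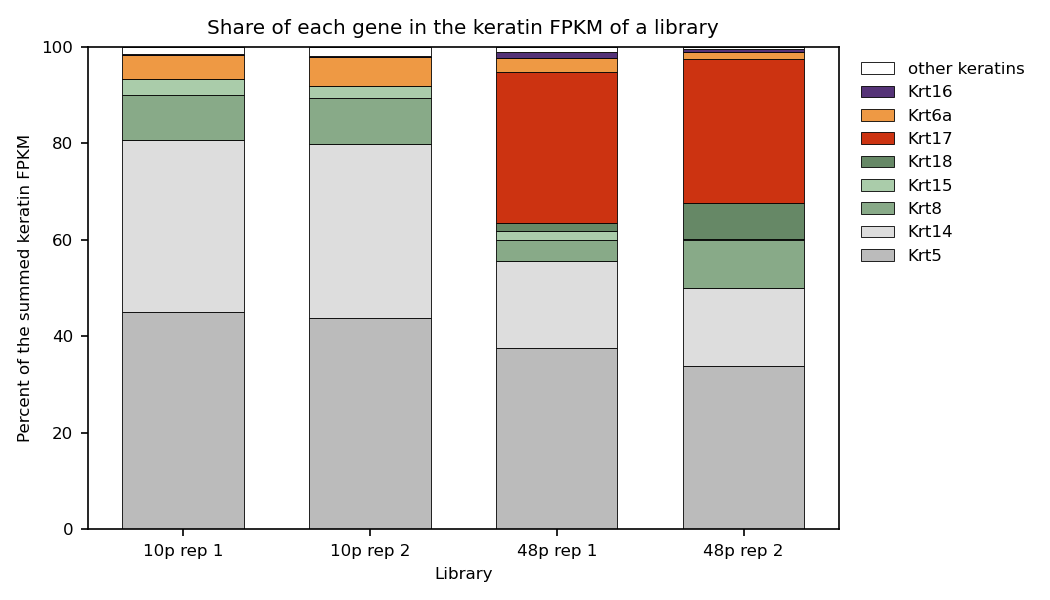
Percent of the summed keratin FPKM held by each gene in each library, as stacked bars from 0 to 100. Krt5 and Krt14 (grey) fill most of the 10p-HFSC bars, and Krt17 (red) takes 31.4% and 30.0% of the 48p-HFSC bars.

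Type I keratins were outweighed by type II keratins in 10p-HFSCs, with a ratio of summed FPKM of 0.678 and 0.675, but not in 48p-HFSCs, with a ratio of 1.22 and 1.20. Without Krt17 the ratio was 0.677 and 0.675 in 10p-HFSCs, against 0.523 and 0.543 in 48p-HFSCs. The ratio in 48p-HFSCs thus lay above 1 with Krt17 and below 1 without it. Leaving out the type I keratin with the highest FPKM lowers the ratio by construction. No other keratin was left out, so this is not shown to be particular to Krt17.

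Ratios within a library do not depend on the scaling between libraries. Krt17 over Krt14, the type I keratin of basal keratinocytes, was 0.000210 and 0.000257 in 10p-HFSCs, against 1.75 and 1.86 in 48p-HFSCs, so that Krt17 passed Krt14 in both 48p-HFSC libraries. Krt16 over Krt14 was 0.00630 and 0.00749 in 10p-HFSCs, against 0.0697 and 0.0359 in 48p-HFSCs. Krt6a over Krt5, the type II keratin of basal keratinocytes, was 0.107 and 0.137 in 10p-HFSCs, against 0.0788 and 0.0424 in 48p-HFSCs. Relative to their basal counterparts, Krt17 and Krt16 were thus higher and Krt6a was lower in both 48p-HFSC libraries.

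The ratio between Krt6a and Krt16, which form filaments together, was close between replicates. Krt6a over Krt16 was 21.6 and 22.1 in 10p-HFSCs, against 2.36 and 2.48 in 48p-HFSCs. Both genes differed about equally between the 48p-HFSC libraries (2.96-fold and 3.10-fold), and their ratio therefore hardly did. Krt17 over Krt16 was 0.0333 and 0.0343 in 10p-HFSCs, against 25.1 and 51.8 in 48p-HFSCs, so that this ratio of neighbouring genes differed between the 48p-HFSC libraries as well. In 10p-HFSCs the order of the 4 genes was Krt6a, Krt16, Krt17 and Krt6b in both libraries. In 48p-HFSCs it was Krt17, Krt6a, Krt16 and Krt6b in both libraries.

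**Figure D3:**
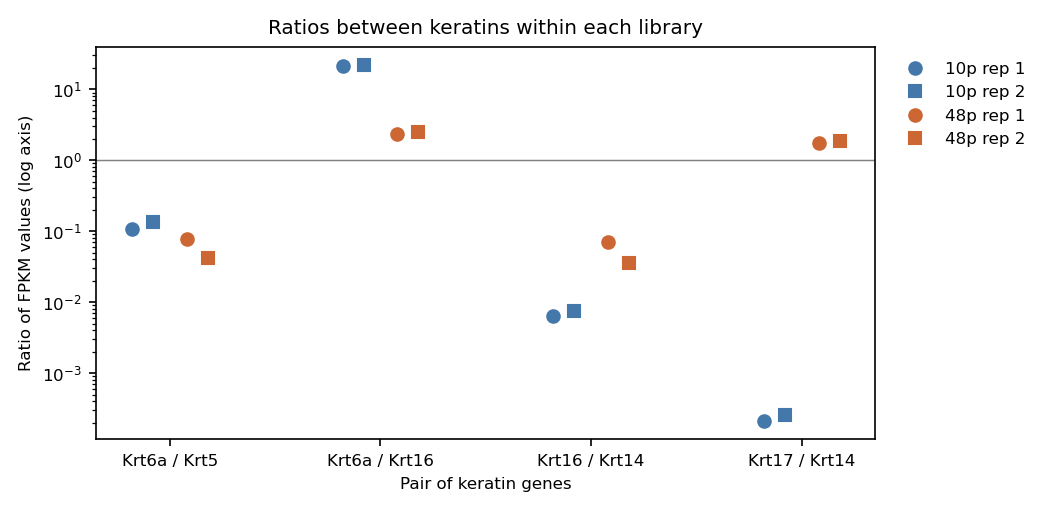
Ratios of FPKM between keratin genes within each library, on a log axis, for 10p-HFSCs (blue) and 48p-HFSCs (orange); circles are replicate 1 and squares replicate 2, and the grey line marks equal levels. The Krt17 to Krt14 ratio lies above 1 only in the 48p-HFSC libraries (1.75 and 1.86), and the Krt6a to Krt16 ratio is 21.6 and 22.1 in 10p-HFSCs against 2.36 and 2.48 in 48p-HFSCs.

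Keratin genes near the wound keratins had levels from high to near 0. Krt5, next to Krt6a, and Krt14, the keratin gene on the other side of Krt16 from Krt17, were among the highest keratins in every library, and their values are given with the tested genes. Krt42, a type I keratin gene 1.852 kb from Krt17, had an FPKM of 1.93 and 1.88 in 10p-HFSCs, against 2.11 and 0.156 in 48p-HFSCs. Krt75, a more distant gene of the type II cluster and a keratin of the companion layer of the follicle, did not exceed 0.205 FPKM in any library. Between 12 and 19 keratin genes reached 1 FPKM in a library, and between 21 and 25 were listed at 0.

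**Figure D4:**
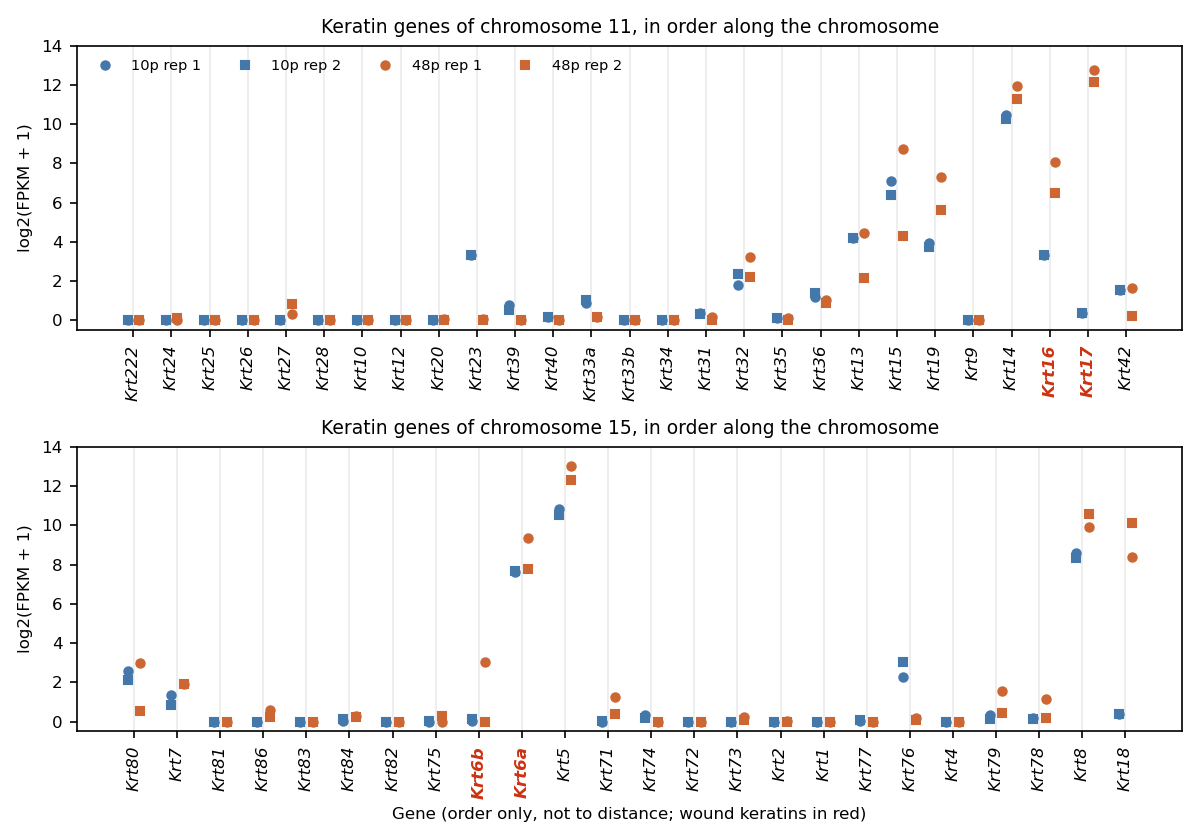
Level of each keratin gene as log2(FPKM + 1) in the 4 libraries, with genes in their order along chromosome 11 (top) and chromosome 15 (bottom) but not to distance, and the wound keratins named in red. Krt16 and Krt17 stand between Krt14 and Krt42, and Krt6b and Krt6a stand before Krt5, and many genes of both clusters are at or near 0.

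The other keratins and the genes around the wound keratins were not part of the choice of the 4 genes and were compared between the groups with limma on log2(FPKM + 1), with Benjamini-Hochberg adjustment over all 11018 tested genes. Calls required a log2 difference of at least 1 in either direction, with an adjusted p-value under 0.05. By this rule 10.8% of all tested genes were higher and 9.15% were lower in 48p-HFSCs (1189 and 1008 genes), and the median log2 difference over all of them was -0.03. On the TPM scale 620 genes were called higher and 820 lower. With either 10p-HFSC library left out, 35 or 36 of all genes were called higher and 140 or 146 lower, so that counts of 0 in the lists go with a low count overall. The lists were written with earlier results of these data known, and their counts are given beside this background.

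Of 12 keratins that accompany the wound keratins in epidermis and follicle, 4 were tested and 0 were called by limma in either direction, also with 0 at an unadjusted p-value under 0.05. Krt5 had an FPKM of 1805 and 1473 in 10p-HFSCs, against 8156 and 5120 in 48p-HFSCs (log2 difference 1.99 ± 0.93 SE, adjusted p = 0.18). Krt14 had an FPKM of 1423 and 1217 in 10p-HFSCs, against 3896 and 2439 in 48p-HFSCs (log2 difference 1.23 ± 0.75 SE, adjusted p = 0.28). Both were above the 10p-HFSC libraries in both 48p-HFSC libraries, but their differences did not pass the test. The SE of each gene was drawn towards a trend of spread with level over all tested genes. With a constant variance prior in place of that trend, 1 of the 4 genes was called. After rescaling to TPM, 1 of the 4 genes, Krt5, was called higher (adjusted p = 0.039), and without replicate 1 of 48p-HFSCs 2 were called.

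Of 6 keratins of simple epithelia, which form the filaments of single-layered epithelium, 5 were tested, and 2 rose and 1 fell. The shares over all tested genes were 10.8% higher and 9.15% lower. Krt18, a type I keratin, rose from 0.286 and 0.285 FPKM in 10p-HFSCs to 329 and 1120 FPKM in 48p-HFSCs (log2 difference 8.89 ± 0.57 SE, adjusted p = 0.00092). Krt19, a type I keratin also found in the follicle bulge, rose from 14.2 and 12.1 FPKM to 155 and 48.8 FPKM (log2 difference 2.64 ± 0.54 SE, adjusted p = 0.023). Krt23 fell from 9.22 and 8.89 FPKM to 0.0441 and 0 FPKM (log2 difference -3.30 ± 0.24 SE, adjusted p = 0.0011). Krt8, the partner of Krt18, had an FPKM of 377 and 323 in 10p-HFSCs, against 956 and 1519 in 48p-HFSCs, and its log2 difference of 1.78 ± 0.49 SE missed the threshold (adjusted p = 0.053). On the TPM scale Krt8 was called (adjusted p = 0.011) and Krt19 was not (adjusted p = 0.053). Unlike most keratins that passed the filter, Krt8 and Krt18 were higher in replicate 2 than in replicate 1 of 48p-HFSCs. Of 24 keratins of hair and inner root sheath, 2 were tested and 0 were called by limma in either direction, with 0 at an unadjusted p-value under 0.05.

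Proteins that bind keratins or anchor their filaments were measured by 10 tested genes of 12. Of these, 4 rose and 0 fell (limma), with a median log2 difference of 0.55. The shares over all tested genes were 10.8% higher and 9.15% lower. Sfn, which encodes the 14-3-3 sigma protein that binds phosphorylated keratin 17, rose from 174 and 218 FPKM to 710 and 826 FPKM (log2 difference 1.97 ± 0.39 SE, adjusted p = 0.021). Rhbdf2, which encodes iRhom2, a membrane protein that binds keratin 16, rose by 1.90 ± 0.27 SE (adjusted p = 0.0074). Evpl and Pkp1, which encode envoplakin and plakophilin 1 of the desmosome, rose by 1.63 and 1.17 (adjusted p = 0.011 and 0.047). On the TPM scale 1 of the 10 genes, Sfn, was called. When either 10p-HFSC library was left out, 0 genes of this list were called.

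Of 35 ligands and receptors linked to the induction of wound keratins, 20 were tested. Of these, 3 rose and 4 fell (limma), with a median log2 difference of -0.43. The shares over all tested genes were 10.8% higher and 9.15% lower, and nothing is read from the counts of this list. The tested genes included Il1rn, which encodes an antagonist of the interleukin 1 receptor and was not called. Il1a, which encodes the interleukin 1 alpha released by injured keratinocytes, rose from 1.49 and 1.77 FPKM to 20.5 and 30.2 FPKM (log2 difference 3.30 ± 0.31 SE, adjusted p = 0.0019). Its receptor gene Il1r1 rose by 1.84 (adjusted p = 0.040), and Ifngr2, a subunit of the interferon gamma receptor, by 1.44 (adjusted p = 0.019). Ereg, which encodes the epidermal growth factor receptor ligand epiregulin, fell from 16.7 and 17.6 FPKM to 2.29 and 4.05 FPKM (log2 difference -2.15 ± 0.31 SE, adjusted p = 0.0079). Il17ra, a receptor subunit for interleukin 17, changed by -1.92 (adjusted p = 0.0063), Fgfr2, which includes the receptor for keratinocyte growth factor, by -1.20 (adjusted p = 0.025), and Btc, another ligand of the epidermal growth factor receptor, by -1.10 (adjusted p = 0.046). Ifng, Il22, Osm and Fgf7, ligands made mainly by immune or stromal cells, were listed at 0 in all libraries. On the TPM scale 4 of the 20 genes were called, and Ifngr2, Fgfr2 and Btc were not (adjusted p = 0.41, 0.063 and 0.17), and with either 10p-HFSC library left out 0 were.

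Transcription factors linked to the wound keratins were represented by 27 tested genes of 33. Of these, 4 rose and 1 fell (limma), with a median log2 difference of 0.30. The shares over all tested genes were 10.8% higher and 9.15% lower, and nothing is read from the counts of this list. The tested genes included Keap1, which regulates Nrf2 and is not itself a transcription factor, and which was not called. Jun, a subunit of the AP-1 factor, rose from 7.26 and 6.38 FPKM to 31.9 and 35.0 FPKM (log2 difference 2.14 ± 0.25 SE, adjusted p = 0.0038). Ets1 rose by 2.04 (adjusted p = 0.019), Klf4, a factor of epidermal differentiation, by 1.48 (adjusted p = 0.031) and Junb, another AP-1 subunit, by 1.09 (adjusted p = 0.043). Sox9, a factor of follicle stem cells and the outer root sheath, fell from 45.6 and 44.2 FPKM to 20.2 and 8.31 FPKM (log2 difference -1.71 ± 0.42 SE, adjusted p = 0.039). Stat3, Nfe2l2 and Gli1, often named as activators of wound keratin genes, gave differences that did not pass the test, with 0.75 for Stat3 (adjusted p = 0.098), -0.20 for Nfe2l2, which encodes Nrf2 (adjusted p = 0.79), and 0.03 for Gli1 (adjusted p = 0.95). After rescaling to TPM 1 of the 27 genes, Sox9, was called, and the adjusted p-values of Jun, Ets1, Klf4 and Junb were 0.10, 0.18, 0.41 and 0.41, and with either 10p-HFSC library left out 0 were.

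Hedgehog signaling, which acts on Krt17 through Gli factors in the follicle, was represented by 5 tested genes of 11, and 0 were called by limma, with 1 at an unadjusted p-value under 0.05. That gene, Sufu, an inhibitor of Gli factors, had a log2 difference of -1.38 ± 0.45 SE (adjusted p = 0.082), and without replicate 1 of 48p-HFSCs 1 gene of this list was called. Shh was listed at 0 in all libraries. Gli2 had an FPKM of 1.09 and 0.850 in 10p-HFSCs, against 0.00907 and 0 in 48p-HFSCs, and did not pass the filter.

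Other genes of wound-activated keratinocytes were represented by 19 tested genes of 25. Of these, 10 rose and 2 fell (limma), with a median log2 difference of 1.38. Among all tested genes, 10.8% were higher and 9.15% lower. With replicate number as an added term in the fit, 10 genes of the list rose and 5 fell. The list was written with earlier results of these data known, so nothing further is read from these counts. Sprr1b, a cornified envelope precursor, rose from 15.1 and 12.8 FPKM to 208 and 242 FPKM (log2 difference 3.92 ± 0.26 SE, adjusted p = 0.00092). Sprr1a, of the same family, rose by 2.70 (adjusted p = 0.0064). Plau, which encodes the protease urokinase, rose by 3.55 (adjusted p = 0.0014), Ptgs2, the inducible enzyme of prostaglandin synthesis, by 3.02 (adjusted p = 0.0021), and Itga5, a fibronectin receptor subunit, by 2.86 (adjusted p = 0.0015). Slpi, a secreted inhibitor of proteases, fell from 254 and 294 FPKM to 4.46 and 9.16 FPKM (log2 difference -5.20 ± 0.36 SE, adjusted p = 0.00097). S100a8, an alarmin of wounded and inflamed epidermis, fell from 89.2 and 146 FPKM to 27.0 and 16.5 FPKM (log2 difference -2.38 ± 0.37 SE, adjusted p = 0.010). The list therefore held genes that moved opposite to Krt16 and Krt17. On the TPM scale 5 of the 19 genes rose and 3 fell, and with either 10p-HFSC library left out 0 were called.

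**Figure D5:**
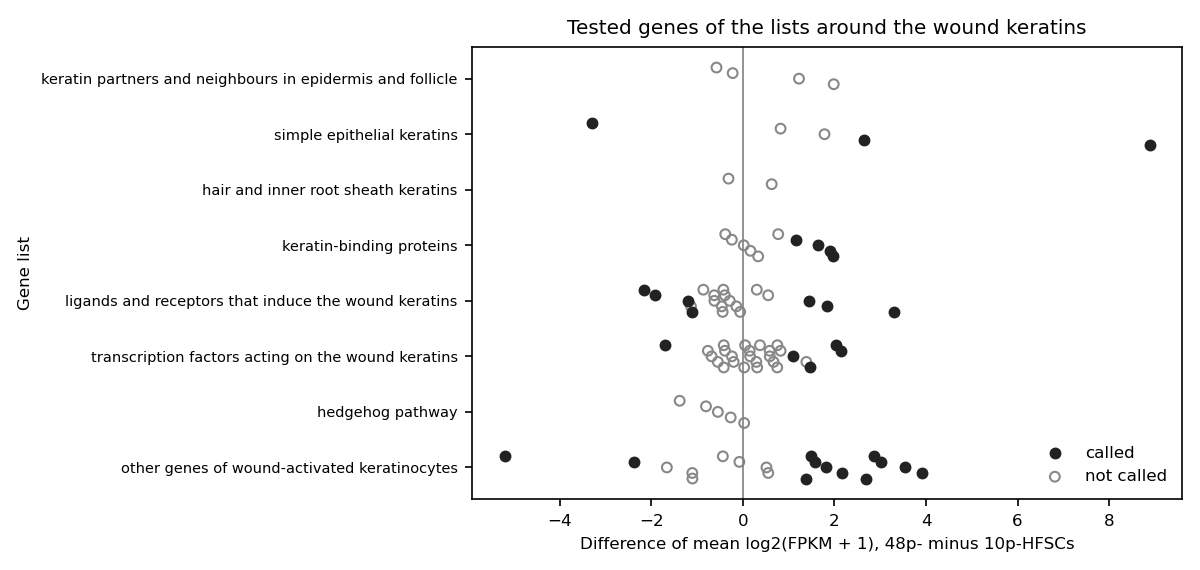
Difference of mean log2(FPKM + 1), 48p-HFSCs minus 10p-HFSCs (horizontal axis), for the tested genes of each list (vertical axis), with filled points for genes called by limma and open points for genes not called. The points spread to both sides of 0 in most lists, from Slpi at -5.20 to Krt18 at 8.89.

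The genes whose profile over the 4 libraries was most like that of each wound keratin were ranked by the root-mean-square distance between centred log2(FPKM + 1) values. For Krt6a the nearest were Slc1a4 (distance 0.068), Extl2, Trim7 and Rhbg, all within 0.101. Slc1a4, a neutral amino acid transporter gene, had an FPKM of 6.47 and 6.77 in 10p-HFSCs, against 25.1 and 8.38 in 48p-HFSCs, and like Krt6a was highest in replicate 1 of 48p-HFSCs. For Krt16 the nearest were Gsdmc2 (distance 0.095), Hopx, Apol9b, Oasl1 and Thbs2, all within 0.215. Hopx, a homeobox gene also used in follicle stem cells, had an FPKM of 0.138 and 0 in 10p-HFSCs, against 24.7 and 8.35 in 48p-HFSCs.

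Krt6b and Krt17 had less close neighbours. The distance is not scaled to the size of the differences of a gene, so those from Krt17 are large in part by construction. For Krt6b the nearest were Slfn2 (distance 0.204), Ivl, Hr, Slc43a2 and Tsku. Ivl, which encodes the cornified envelope protein involucrin, had an FPKM of 8.12 and 8.49 in 10p-HFSCs, against 84.1 and 13.1 in 48p-HFSCs, and was highest in the library in which Krt6b was raised. For Krt17 the nearest were Rhox5 (distance 1.12), Krt18 (1.79), Lgals7, Bcl2l15 and Rhox2h, up to 2.60. Rhox5 had an FPKM of 0.736 and 0.685 in 10p-HFSCs, against 1491 and 1770 in 48p-HFSCs, and Lgals7, a galectin gene of stratified epithelium, had 0.124 and 0.691 in 10p-HFSCs, against 351 and 247 in 48p-HFSCs. Rhox5, Krt18, Bcl2l15 and Rhox2h were higher in replicate 2 than in replicate 1 of 48p-HFSCs, whereas Krt17 and Lgals7 were lower. With 4 libraries, many genes have similar profiles, and the ranking is a description.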

How the data were processed

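Total RNA of 2 libraries each of 10p- and 48p-HFSCs was sequenced by the authors in 101-base single-end mode after TruSeq stranded mRNA preparation and mapped to mm10. The submitters' processing notes name TopHat2 2.1.1, Bowtie2 2.2.8, SAMtools 0.1.18 and Cuffdiff 2.2.1, while the study's methods name Cufflinks and other versions of Bowtie2 and SAMtools. The deposited values are FPKM per gene symbol and library. Gene annotation, strand setting and treatment of multiply mapped reads are not given in the sources used here. FPKM are not counts, so no test for counts was run.

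The 4 genes and all lists were chosen with earlier results of these data known. The 11018 genes that had 2 or more libraries with an FPKM of 1 or higher were compared on log2(FPKM + 1) with limma 3.58.1 in R 4.3.3 (lmFit, eBayes with trend), with group as the only term, and tested on simulated data. A pseudocount of 1 understates changes of low genes. An exact permutation test of 2 against 2 libraries cannot go below p = 0.333. The wound keratins were not tested. Named were the called genes of each list, at most 6 by size of difference, Krt5, Krt14 and the 5 nearest profiles of each wound keratin, of which 1 is not reported here. S100a8, Btc, Sufu, Gli1, Gli2, Shh, Stat3, Nfe2l2, Krt8, Krt42, Krt75, the ligands at 0 and the cell type markers given with values were chosen after their values were seen.

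Depth was estimated from the most common low FPKM (under 0.5) times transcript length of single-transcript genes, taken as 1 read. Of genes under 5 reads, 46.0% to 47.6% were then within 0.1 of a whole number, so the depths and read numbers are approximate and intervals were not computed. Positions, lengths and sequences came from GENCODE M21. Alternatives were a pseudocount of 0.1, no filter, a mean FPKM of at least 1, TPM, median-of-ratios and quantile scaling, a constant variance prior, a replicate block, keratin shares without Krt5, and leaving out each library.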

Additional observations from a re-analysis of the deposited data

How the results depend on the processing

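Krt6b reversed when replicate 1 of 48p-HFSCs was left out, and over the 4 leave-one-out settings its log2 difference ran from -0.086 to 2.97. That of Krt17 was 13.74 with a pseudocount of 0.1 and 11.76 after rescaling to TPM or quantile normalization, and it ran from 11.76 to 12.35 without a library, that of Krt6a from 0.14 to 1.70 and that of Krt16 from 3.14 to 4.76. Krt6a kept its direction in the mean under TPM (0.33). Without Krt5 in the sum, the keratin shares in 10p- and 48p-HFSCs were 9.72% and 3.46% for Krt6a, 0.445% and 1.44% for Krt16, and 0.0151% and 47.8% for Krt17, which is by construction larger. Of all tested genes, 620 were higher and 820 lower under TPM against 1189 and 1008 on the FPKM scale, and 637 were lower without the filter. Without a library, 35 to 1936 were higher and 140 to 1875 lower. With 1 library in a group, the lone library is assumed to vary like the others.

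Called genes by list were 1 of the keratin partners under TPM and 1 with a constant prior (0 to 2 without a library), 1 of the keratin-binding genes under TPM (0 to 4), 4 of the ligands and receptors under TPM (0 to 9), 1 of the transcription factors under TPM and 1 without the filter (0 to 6), and 0 to 13 of the other wound genes without a library. The cause was not tested. For the 24 named list genes over 12 settings, 219 of 288 calls were the same, 69 were lost and 0 reversed, and 22 of the lost calls were outside leave-one-out.

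Replicate numbers are not said to mark a shared culture or day, and only 2 pairs exist. Same-numbered deviations correlated at 0.408 across genes. The fit with the replicate block called 1613 genes as higher and 1497 as lower, and the hedgehog list had 1 called gene (Sufu), against 0 without the block (0 to 1 without a library).

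Depth limits the low values most, namely Krt6b in 3 libraries and Krt17 in 10p-HFSCs, and reads shared by Krt6a and Krt6b limit their split. With 2 libraries a group a p-value that missed the threshold does not show equal levels.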
